A study of Homo sapiens with 24 samples.

Results

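The transcription factors of the immediate early response were followed in 3D aggregates of LUHMES cells after exposure to rotenone, a plant-derived inhibitor of mitochondrial complex I. They were 10 genes, *FOS*, *FOSB*, *FOSL1*, *FOSL2*, *JUN*, *JUNB*, *JUND*, *EGR1*, *EGR2* and *NR4A1*, taken as the probes whose RefSeq accession belongs to one of these genes. Each of the 10 genes had 1 probe on the array. *NR4A1* did not pass the filter on dim spots, so that 9 of the 10 were among the 21235 named genes that were tested.

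LUHMES is a conditionally immortalized line of human mesencephalic cells that carries a tetracycline-controlled v-myc gene and becomes a dopaminergic neuron once tetracycline shuts the transgene off. All groups came from this 1 line and differentiated as aggregates on a shaker in medium with cAMP, GDNF, tetracycline and N2. Rotenone in DMSO was added on day 7 at 50 or 100 nM, and control aggregates received DMSO alone in the amount that goes with 100 nM. Aggregates were taken on day 8 after 12 or 24 h, or were washed and taken on day 15 after 7 days of recovery. The 4 treatments (DMSO, 12 or 24 h of 50 nM, and 24 h of 100 nM) at both ages gave 8 groups of 3 arrays. The labels do not say whether the 3 replicates were separate cultures, so that the p values measure the spread between these samples, which may be technical.

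Immediate early transcription factors are made from genes that need no new protein to be switched on, and their mRNAs are short-lived. FOS and JUN family proteins pair through leucine zippers to form AP-1, while EGR1, EGR2 and NR4A1 bind DNA through zinc fingers. In neurons they are induced by synaptic activity, growth factors and cAMP, largely through CREB and through SRF with its ELK partners, and c-Jun is also a substrate of the JNK kinases in injured neurons.

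Replicates of one number came from one slide, which held all 8 groups. The study's methods report that some arrays were processed at another time with another washing procedure, without naming them. Slide 1 was taken to be this batch, and 67.3 to 82.4% of its spots were well above background. On slide 2 the share was 53.6 to 60.8%, and slide 3 had 50.9 to 62.4%. Values are log2 signals after normalization and correction of slide 1, so that 1 unit is a doubling, and errors of group means are SDs with n = 3. The 8 neuronal markers, among them *TUBB3*, *MAP2* and *STMN2*, were well above background on all 24 arrays. Of the 8 dopaminergic markers 5 were so on all 24 arrays, *TH* and *SLC6A3* included. Markers of other cells were mixed. Of the precursor markers, *NES* was well above background on all 24 arrays and *SOX2* on 0. Of the astrocyte markers, *SLC1A3* was so on 9 arrays, *AQP4* and *S100B* on 8 and *GFAP* on 1. *MBP*, *MOG* and *OLIG1* of the oligodendrocyte lineage were so on all 24. Of the microglia markers, *PTPRC* was so on 23 arrays, *CSF1R* on 11 and *CX3CR1* on 4. Of the endothelial and fibroblast markers, *CDH5* was so on 20, *COL1A1* on 15, *PECAM1* on 1 and *COL3A1* on 0.

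The sequence just upstream of the transcription start of *FOS*, *EGR1*, *JUN* and *JUND* is shown because these members changed or moved most clearly in the comparisons that follow. Elements that switch immediate early genes on can lie there and also further upstream, which was not searched. RefSeq held an upstream sequence for 9 of the 10 genes on GRCh38.p14, and *FOSL1* was not matched. The window is the 250 bases before the start, written 5′ to 3′ on the strand of the gene. Capitals mark the CRE (TGACGTCA), the short CRE core TGACG, the TGACATCA element and the CArG box on either strand, and TATAAA on the strand of the gene. The CRE contains the core on both strands.
FOS, chr14:75278578-75278827, plus strand: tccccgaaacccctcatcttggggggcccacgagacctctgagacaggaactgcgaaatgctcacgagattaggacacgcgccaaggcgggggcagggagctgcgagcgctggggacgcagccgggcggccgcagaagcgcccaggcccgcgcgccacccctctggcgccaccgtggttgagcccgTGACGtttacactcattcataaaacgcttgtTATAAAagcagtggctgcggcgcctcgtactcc
EGR1, chr5:138465229-138465478, plus strand: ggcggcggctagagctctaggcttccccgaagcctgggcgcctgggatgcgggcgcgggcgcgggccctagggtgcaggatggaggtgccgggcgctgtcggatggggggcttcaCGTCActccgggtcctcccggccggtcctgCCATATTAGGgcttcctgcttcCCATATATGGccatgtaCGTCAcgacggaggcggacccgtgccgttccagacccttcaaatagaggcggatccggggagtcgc
JUN, chr1:58784048-58784297, minus strand: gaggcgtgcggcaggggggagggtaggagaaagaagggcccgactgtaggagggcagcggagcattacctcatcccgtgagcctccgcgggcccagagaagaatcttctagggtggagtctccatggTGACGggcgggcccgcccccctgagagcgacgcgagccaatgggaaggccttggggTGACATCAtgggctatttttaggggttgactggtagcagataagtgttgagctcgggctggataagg
JUND, chr19:18281623-18281872, minus strand: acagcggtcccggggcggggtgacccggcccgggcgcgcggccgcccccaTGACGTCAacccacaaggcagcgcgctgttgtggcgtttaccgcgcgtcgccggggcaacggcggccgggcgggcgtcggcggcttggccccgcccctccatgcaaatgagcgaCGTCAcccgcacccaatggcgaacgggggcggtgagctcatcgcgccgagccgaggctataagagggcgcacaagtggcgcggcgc

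The short CRE core, part of the site that CREB binds, was found in 8 of the 12 windows of these 9 genes, in 1 window of each gene but *NR4A1*, while 21.2% of all 35116 RefSeq windows of this length held it. Positions are those of the first base of a match, counted back from -1 at the base before the start. In *FOS* the core lay at -64 and TATAAA at -33, and 6.8% of all windows held the latter. *EGR1* held the core at -135 and -66, with 2 CArG boxes, the site of SRF, between them at -105 and -83. A CArG box was found in 1.16% of all windows, and among the members also in 1 of the 3 *EGR2* windows. The full CRE was found among the members in *JUND* alone, at -200, against 1.65% of all windows. *JUN* held TGACATCA at -67, an element found in 2.37% of all windows. The AP-1 site TGACTCA was found in none of the members' windows and in 4.2% of all windows. These are matches of letters, and binding was not measured.

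How far each value can be read depends on how bright its spot was. *JUN*, *JUNB* and *JUND* were well above background on all 24 arrays and *EGR1* on 22. *FOS* was so on 14 arrays, all 12 of day 15 and 2 of day 8. *FOSL1* reached this level on 11 arrays and *FOSB* on 9, in each case on all 8 arrays of slide 1 and few others. *FOSL2* reached it on 3 arrays and *EGR2* on 2. *NR4A1*, an orphan nuclear receptor induced by depolarization and cAMP, was at or near background on all 24 arrays, with group means from 2.99 ± 0.36 to 3.56 ± 0.64, and was not tested. No spot of a member was saturated or marked as an outlier.

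**Figure D1:**
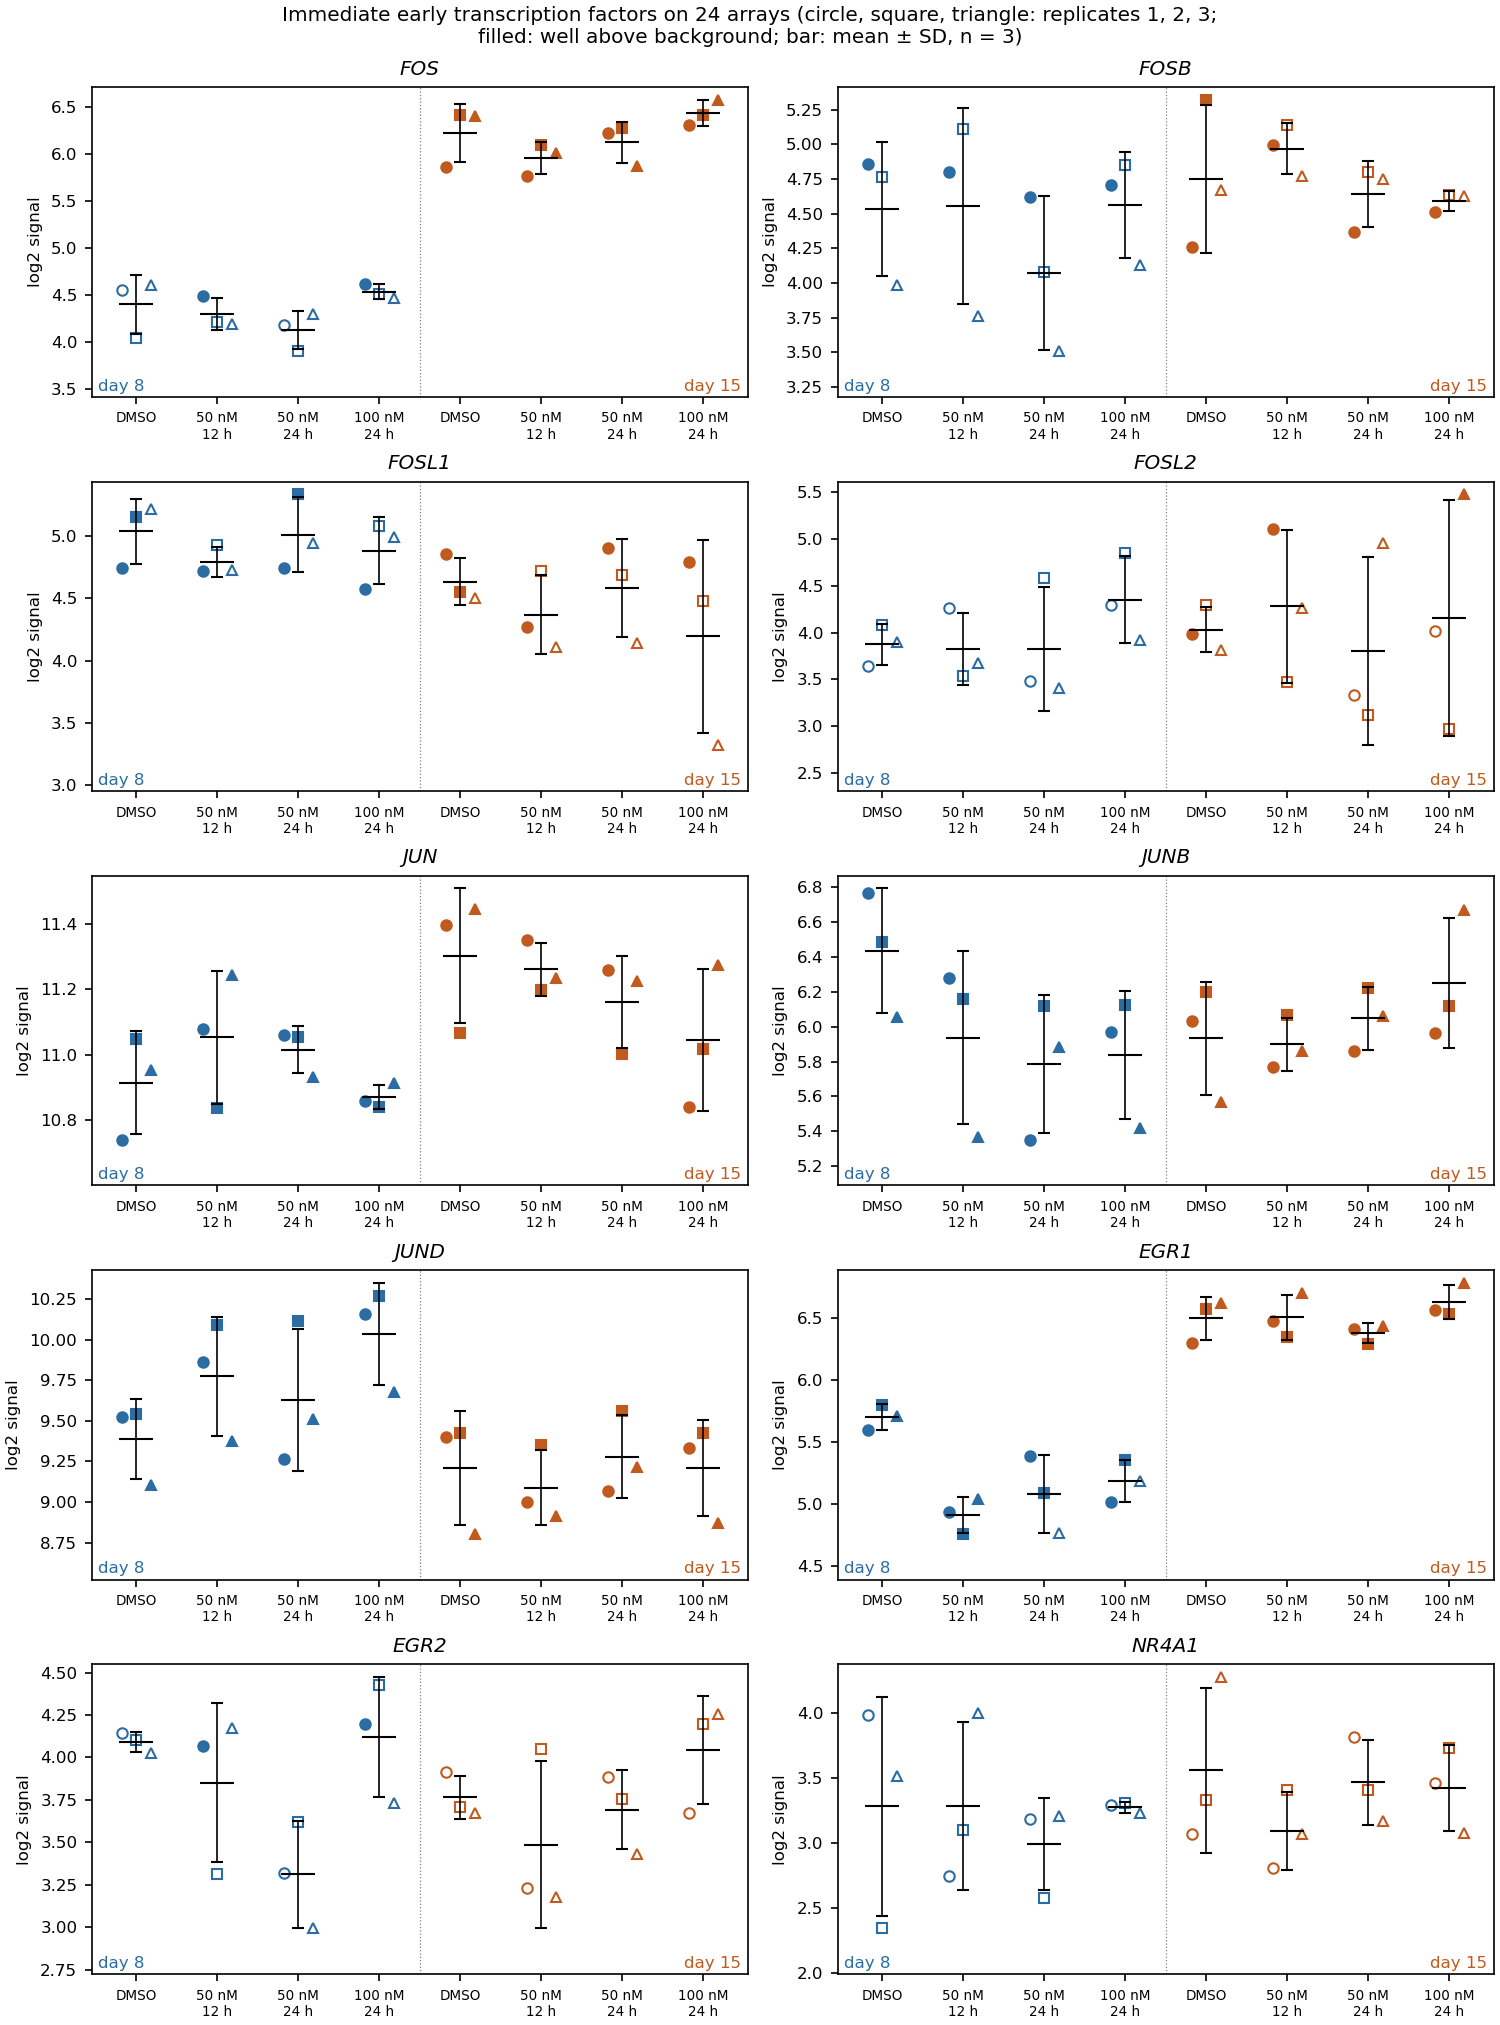
Log2 signal (y axis) of the 10 genes in each of the 8 groups (x axis), with day 8 in blue and day 15 in orange, 1 point per array, filled where the spot was well above background; bars are mean ± SD of 3 arrays. *FOS* and *EGR1* are higher on all 12 arrays of day 15 than on any of day 8, and *EGR1* is lower in each rotenone group of day 8 than in DMSO.

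The first comparison asks how the members stood after 12 or 24 h of rotenone. On day 8 *EGR1* was the member that changed: it was lower after 50 nM for 12 h, after 50 nM for 24 h and after 100 nM for 24 h. No member was called higher. No exposure shorter than 12 h was sampled, so that earlier changes of these short-lived mRNAs were not measured. *JUNB* lay lower and *JUND* higher after every exposure without passing the test, and *FOS* and *JUN* differed little from DMSO. With 100 nM, 4.09% of all genes tested were called higher and 5.43% lower, against 0 and 1 of the 9 members. With 50 nM for 24 h these shares were 3.65 and 4.36%, and with 50 nM for 12 h they were 2.67 and 2.85%, again against 0 and 1 of the 9 members. A call is an adjusted p under 0.05 in limma with Benjamini-Hochberg adjustment over all 21235 genes. The 3 comparisons share their DMSO arrays. Titles of the DMSO samples give no exposure time, so that a match in time to the 12 h group is not known.

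EGR1 is a zinc-finger factor that couples activity and growth factor signals to later gene expression. Its log2 signal in DMSO on day 8 was 5.59, 5.80 and 5.71 in replicates 1 to 3. After 50 nM for 12 h it was 4.94, 4.76 and 5.04, and after 50 nM for 24 h it was 5.39, 5.09 and 4.76. After 100 nM for 24 h it was 5.02, 5.36 and 5.18. Every array with rotenone was below every DMSO array. The log2 fold change was -0.79 (SE 0.14, adjusted p = 0.00233 in limma) after 12 h of 50 nM, or 1.73-fold lower. It was -0.62 (SE 0.14, adjusted p = 0.0102 in limma) after 24 h of 50 nM, or 1.54-fold lower. With 100 nM it was -0.51 (SE 0.14, adjusted p = 0.0275 in limma), or 1.43-fold lower. The spot was well above background on all 3 arrays in DMSO and after 12 h, and on 2 of 3 arrays in each group exposed for 24 h.

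The same difference can be read within each slide, before slide 1 was corrected. *EGR1* was lower on 3 of 3 slides after each exposure: by -1.06 to -0.66 after 12 h of 50 nM, by -0.97 to -0.22 after 24 h of 50 nM and by -0.58 to -0.44 with 100 nM. The groups of 3 arrays did not overlap for 28.5% of all genes with 100 nM, 28.2% with 50 nM for 24 h and 23.6% with 50 nM for 12 h. Among the 9 members they did not overlap for 2, 2 and 1 genes respectively, *EGR1* in all 3 comparisons with *JUND* at 100 nM and *EGR2* at 50 nM for 24 h. The *EGR1* call was lost in all 3 comparisons when slides 2 and 3 were used alone (adjusted p = 0.318 with 100 nM, 0.0749 with 50 nM for 24 h and 0.106 with 50 nM for 12 h in limma), and also without batch correction or with only the compared groups in the fit, while its direction stayed the same. Its size moved with the setting, from -1.01 to -0.24 with 100 nM, from -1.03 to -0.29 with 50 nM for 24 h and from -1.16 to -0.35 with 50 nM for 12 h, in each case smallest with a normexp offset of 50. With 100 nM it was also lost on leaving out DMSO replicate 2 (adjusted p = 0.104 in limma) or 3 (0.0767) or 100 nM replicate 1 (0.138) or 3 (0.0753), and with 50 nM for 24 h on leaving out replicate 3 of that group (0.0677).

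**Figure D2:**
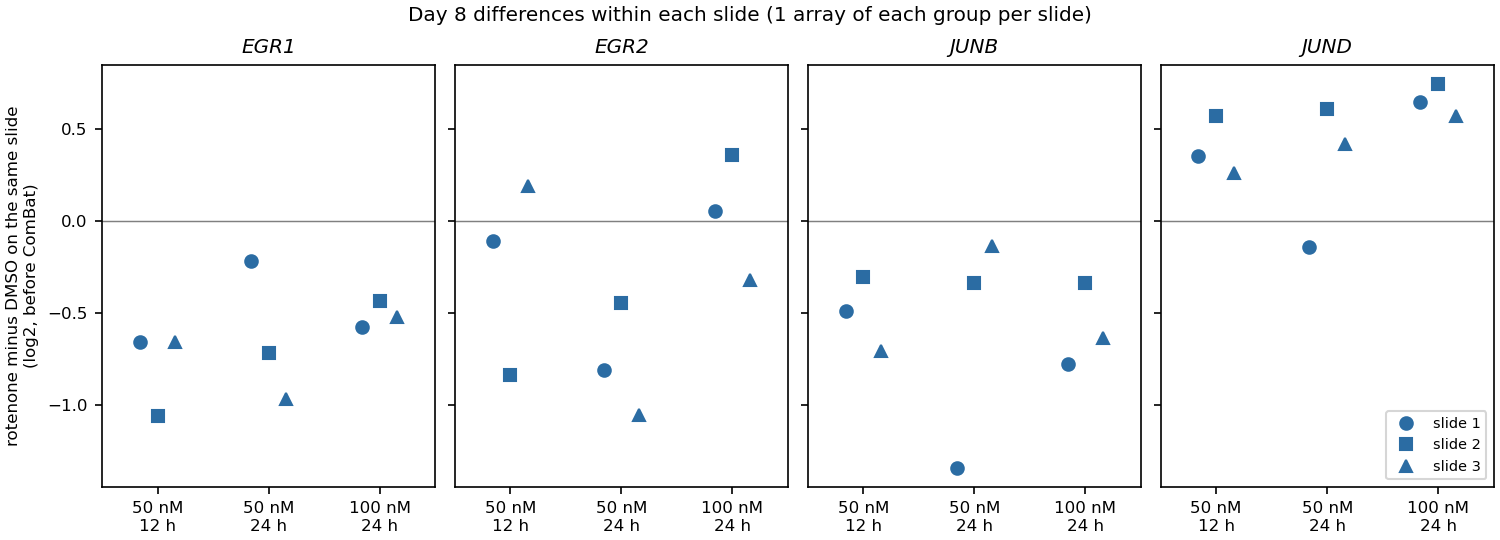
Difference of rotenone and DMSO on the same slide on day 8 (y axis, log2 scale, before correction of slide 1) for *EGR1*, *EGR2*, *JUNB* and *JUND* after each exposure (x axis), with 1 point per slide. *EGR1* and *JUNB* lie below 0 at every point, and *JUND* above 0 at every point but that of slide 1 after 50 nM for 24 h.

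JUND, the JUN family member with the steadiest expression in resting cells, read 9.52, 9.54 and 9.10 in DMSO and 10.16, 10.27 and 9.68 with 100 nM. Here too no array overlapped, and within the slides the difference was 0.57 to 0.74, higher on 3 of 3. The log2 fold change was 0.65 (SE 0.25), which did not pass the test (adjusted p = 0.122 in limma). With the slide as a block in the fit in place of the batch correction it did pass, at 0.65 (adjusted p = 0.00523 in limma). It also passed in the authors' own normalized values (0.62, adjusted p = 0.00306 in limma). After 50 nM the values were 9.86, 10.09 and 9.37 at 12 h and 9.27, 10.12 and 9.51 at 24 h. Both sets overlapped DMSO, with log2 fold changes of 0.39 (95% interval -0.13 to 0.91) and 0.24 (95% interval -0.28 to 0.76).

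JUNB, which tempers c-Jun in AP-1 dimers, read 6.77, 6.48 and 6.06 in DMSO. It read 6.28, 6.16 and 5.37 after 12 h of 50 nM, 5.35, 6.12 and 5.89 after 24 h of 50 nM, and 5.97, 6.12 and 5.42 with 100 nM. Each exposed group overlapped DMSO, and replicate 3 was the lowest in 3 of the 4 groups. The log2 fold changes were -0.50, -0.65 and -0.60 in the same order, with adjusted p = 0.381, 0.172 and 0.207 in limma. Within the slides *JUNB* was lower on 3 of 3 after each exposure.

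JUN encodes c-Jun, the partner that most FOS proteins need. It read 10.74, 11.05 and 10.95 in DMSO and 10.86, 10.84 and 10.91 with 100 nM, overlapping throughout. The log2 fold change with 100 nM was -0.04 (95% interval -0.31 to 0.23, adjusted p = 0.921 in limma). With 50 nM it was 0.14 (95% interval -0.13 to 0.41) after 12 h and 0.10 (95% interval -0.17 to 0.37) after 24 h. These intervals leave room for a change of up to 0.41 on the log2 scale.

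The FOS family was dim on day 8. *FOS* read 4.54, 4.04 and 4.60 in DMSO and 4.61, 4.51 and 4.46 with 100 nM, of which 1 array of the 6 was well above background, so that no fold is given. The adjusted p values of *FOS* in the 3 comparisons were 0.770 with 100 nM, 0.439 with 50 nM for 24 h and 0.876 with 50 nM for 12 h in limma. *FOSB* and *FOSL1*, activity-induced relatives of *FOS*, had adjusted p values from 0.541 to 0.989 in limma, and *FOSL2* from 0.739 to 0.986. What these spots could have shown is limited by their signal over background.

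EGR2, a relative of EGR1 known for its part in myelination, read 4.14, 4.10 and 4.02 in DMSO and 3.32, 3.62 and 2.99 after 50 nM for 24 h. None of the 6 spots was well above background, although the sets did not overlap, and no fold is given. The difference did not pass the test (adjusted p = 0.0712 in limma) but did in the authors' normalized values (adjusted p = 0.0476 in limma). With 100 nM *EGR2* read 4.20, 4.43 and 3.73, on both sides of DMSO and far from passing the test.

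**Figure D3:**
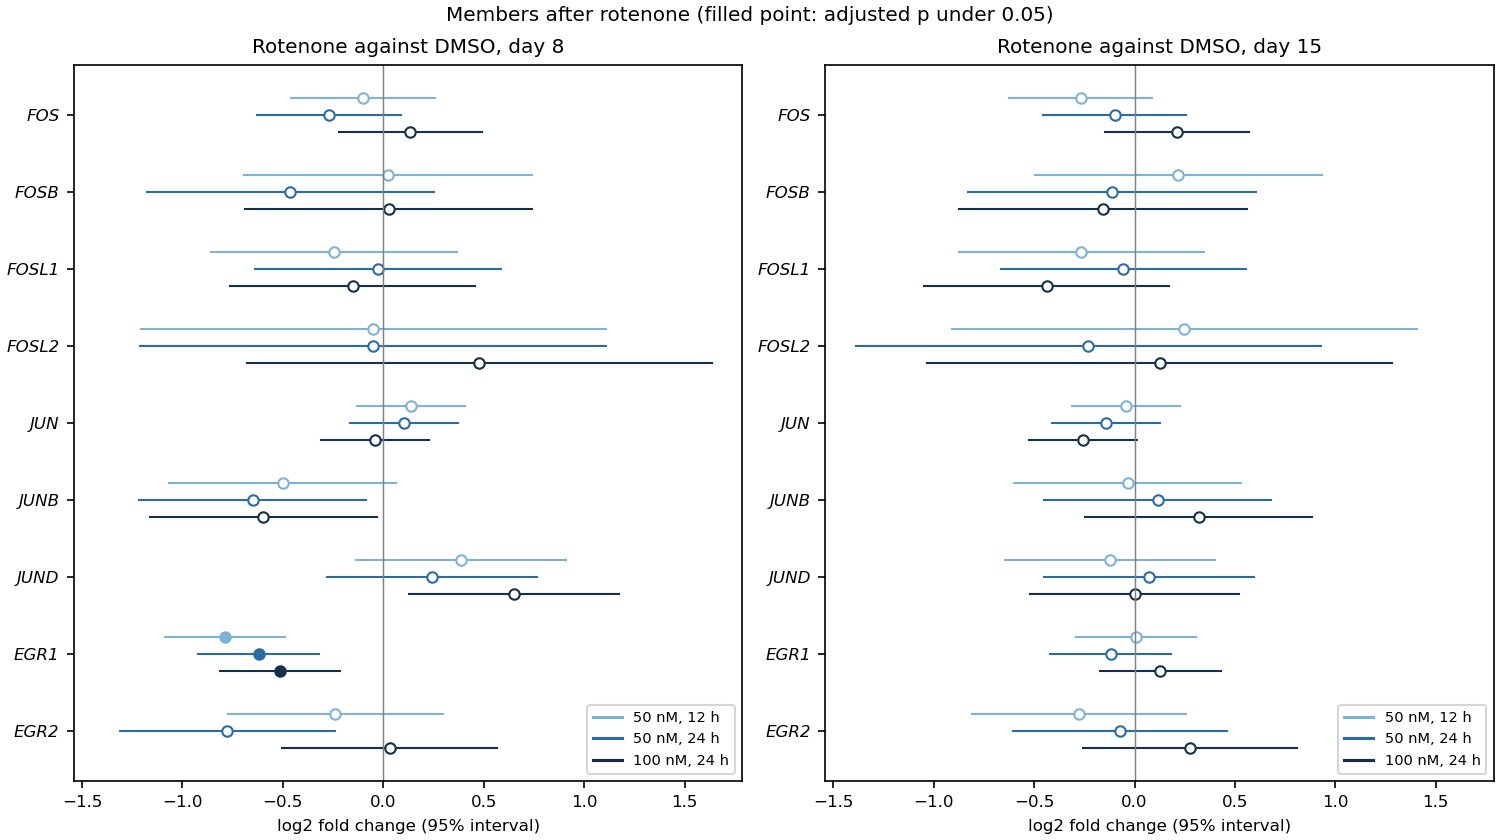
Log2 fold change of rotenone against DMSO (x axis, with 95% intervals of each single comparison) for the 9 members tested (y axis) on day 8 and on day 15, with a filled point where the adjusted p was under 0.05. Only *EGR1* on day 8 has filled points, from -0.79 to -0.51, and *FOSL2* has the widest intervals. Spots of *FOS* on day 8, *FOSB*, *FOSL1*, *FOSL2* and *EGR2* were mostly not well above background.

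Markers of the cells moved alongside. The summed linear signal of the 8 neuronal markers was 169922 to 195773 in DMSO on day 8, 158012 to 168159 with 100 nM, 153207 to 169622 with 50 nM for 24 h and 161902 to 191028 with 50 nM for 12 h. Of these markers 3 were called lower with 100 nM, 2 with 50 nM for 24 h and 0 with 50 nM for 12 h, where the *EGR1* difference was -0.79. The dopaminergic sum was 1508.5 to 1573.5 in DMSO and 1813.2 to 1932 with 100 nM. The precursor sum was 1648 to 1993.2 in DMSO and 2301.5 to 2588.6 with 100 nM. Neither sum overlapped, and nor did 28.5% of all genes in this comparison. The single precursor markers went both ways with 100 nM. On the log2 scale *NES* differed by 0.59 and *SOX2* by 0.04, against -0.47 for *MKI67*, -0.75 for *TOP2A*, -0.26 for *CCNB1* and -0.15 for *CDK1*. None of the 8 dopaminergic markers, of the 6 precursor markers or of the astrocyte, oligodendrocyte, microglia and endothelial or fibroblast markers was called in any of the 3 comparisons. Fewer cells of a type and less RNA per cell cannot be told apart in bulk RNA, and the part of these markers in the *EGR1* difference was not tested.

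The second comparison asks what remained after the wash-out. On day 15 none of the 9 members was called in any of the 3 exposed groups, and none reached an unadjusted p under 0.05. Over all genes 0% were called in each of these comparisons, and 7.19% reached an unadjusted p under 0.05 after 100 nM, 3.28% after 50 nM for 24 h and 3.48% after 50 nM for 12 h. *EGR1* read 6.30, 6.57 and 6.62 in DMSO and 6.56, 6.53 and 6.78 after 100 nM. The groups overlapped, as they did after 50 nM for 12 h (6.47, 6.34 and 6.70) and for 24 h (6.41, 6.29 and 6.43). The log2 fold change of *EGR1* after 100 nM was 0.13 with a 95% interval from -0.17 to 0.43.

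*FOS* on day 15 read 5.86, 6.41 and 6.39 in DMSO and 6.31, 6.41 and 6.57 after 100 nM, a difference of 0.21 (95% interval -0.15 to 0.57). *JUND*, which lay highest with 100 nM on day 8, had a log2 fold change of 0.0003 a week later (95% interval -0.52 to 0.52), with 9.40, 9.42 and 8.80 in DMSO and 9.33, 9.43 and 8.87 after 100 nM. *JUN* had the smallest p of the members after 100 nM, at -0.26 (95% interval -0.53 to 0.01, adjusted p = 0.702 in limma). *JUNB* read 5.96, 6.12 and 6.67 after 100 nM against 6.03, 6.20 and 5.57 in DMSO, so that replicate 3 alone stood higher. All other adjusted p values of members on day 15 were 0.754 or higher in limma. All comparisons with DMSO on day 15 include 1 replicate whose scan name, unlike those of the other DMSO arrays, does not name DMSO and gives 12 h. Its group was taken from its label. The interaction and the comparison of the days in DMSO, given below, include this replicate too.

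Whether the effect of 100 nM differed between the days was tested directly as an interaction. It was called for none of the 9 members, while 1.17% of all genes were called higher on day 15 and 1.30% lower. At an unadjusted p under 0.05 there were 2 members, and 14.4% of all genes. *EGR1* differed by 0.64 (SE 0.20, adjusted p = 0.111 in limma), and *JUNB* by 0.92 (SE 0.38, adjusted p = 0.262 in limma). *EGR1* was called only with the processed signal of the scanner software scaled to the 75th percentile (1.24, adjusted p = 0.0231 in limma).

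The DMSO arrays show how the members differed between the days without rotenone. Aggregates of day 15 had also been washed, moved to new plates and given fresh medium, so that age and handling cannot be told apart. From day 8 to day 15 *FOS*, *EGR1* and *JUN* were called higher and no member was called lower. Over all genes 10.1% were called higher and 13.2% lower, against 3 and 0 of the 9 members. The groups did not overlap for 40.1% of genes against 4 members, these 3 and *EGR2*. *EGR2* lay lower on day 15, with no spot of either DMSO group well above background. Within the slides *EGR2*, *JUNB* and *JUND* were lower on 3 of 3.

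*FOS*, the founding member of its family and a common marker of recent neuronal activity, had the largest rise. Its DMSO values were 4.54, 4.04 and 4.60 on day 8 and 5.86, 6.41 and 6.39 on day 15. None of the day 8 spots and all of the day 15 spots were well above background. The fitted log2 difference was 1.82 (SE 0.17, adjusted p = 1.87e-07 in limma). The measured day 8 signals were used as they stood, since they exceeded the dimmest signals well above background. The rise from them was 3.54-fold in this normalization, the same as the fitted fold. This fold is a point estimate and not a lower bound, since the interval of the fitted log2 difference ran from 1.47 to 2.18. The log2 difference was 0.82 to 4.07 under other settings and 1.65 to 2.01 on leaving out 1 array. Within the slides it ranged from 1.33 to 2.41. With the exposed aggregates included, the 12 arrays of day 8 read 3.90 to 4.61 with a median of 4.38, and the 12 of day 15 read 5.76 to 6.57 with a median of 6.24. Ordered by level, all 4 groups of day 15 stood above all 4 of day 8, and the step of 1.42 between the lowest group of day 15 and the highest of day 8 was the only one of 7 between neighbours whose arrays did not overlap.

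*EGR1* rose by 0.80 (SE 0.14, adjusted p = 0.000398 in limma), or 1.74-fold, and by 0.71 to 0.92 within the slides. Its order of levels had 2 steps between neighbours without overlap. One of 0.68 lay between the lowest group of day 15 (50 nM for 24 h, 6.38 ± 0.08) and DMSO of day 8 (5.70 ± 0.10), and one of 0.51 between that and 100 nM on day 8 (5.19 ± 0.17). Neighbours among the 3 exposed groups of day 8 overlapped, and so did neighbours among the 4 groups of day 15. The highest and the lowest of the latter, 100 nM (6.53 to 6.78) and 50 nM for 24 h (6.29 to 6.43), did not overlap each other. This pair was picked after the values were seen and was not tested, and the share of all genes without overlap was not counted for it. Neither group was called against DMSO of day 15. Over all groups the 12 arrays of day 15 read 6.29 to 6.78 and those of day 8 read 4.76 to 5.80.

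*JUN* rose by 0.39 (SE 0.13, adjusted p = 0.0345 in limma), or 1.31-fold, from 10.74, 11.05 and 10.95 to 11.40, 11.07 and 11.44. Replicate 2 was 11.05 before and 11.07 after, and within slide 2 the difference was -0.01, against 0.62 and 0.50 on the other slides. The call was lost without DMSO replicate 1 or 3 of day 8 (adjusted p = 0.155 and 0.0637 in limma), without replicate 1 or 3 of day 15 (0.118 and 0.133), and in slides 2 and 3 alone (0.509). It was also lost with scaling to the 75th percentile (adjusted p = 0.108 in limma), with ComBat without the groups as covariates (0.0537), with only the compared groups in the fit (0.111) and without batch correction (0.137). No step between neighbours in the order of its 8 groups was free of overlap, and the same held for *FOSB*, *FOSL1*, *FOSL2*, *JUNB*, *JUND*, *EGR2* and *NR4A1*. *JUNB* (-0.50, 95% interval -1.07 to 0.06) and *JUND* (-0.18, 95% interval -0.70 to 0.34) did not pass the test, with adjusted p = 0.203 and 0.680 in limma. *FOSL1* (adjusted p = 0.371), *FOSB* (0.720), *FOSL2* (0.884) and *EGR2* (0.413) did not either.

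**Figure D4:**
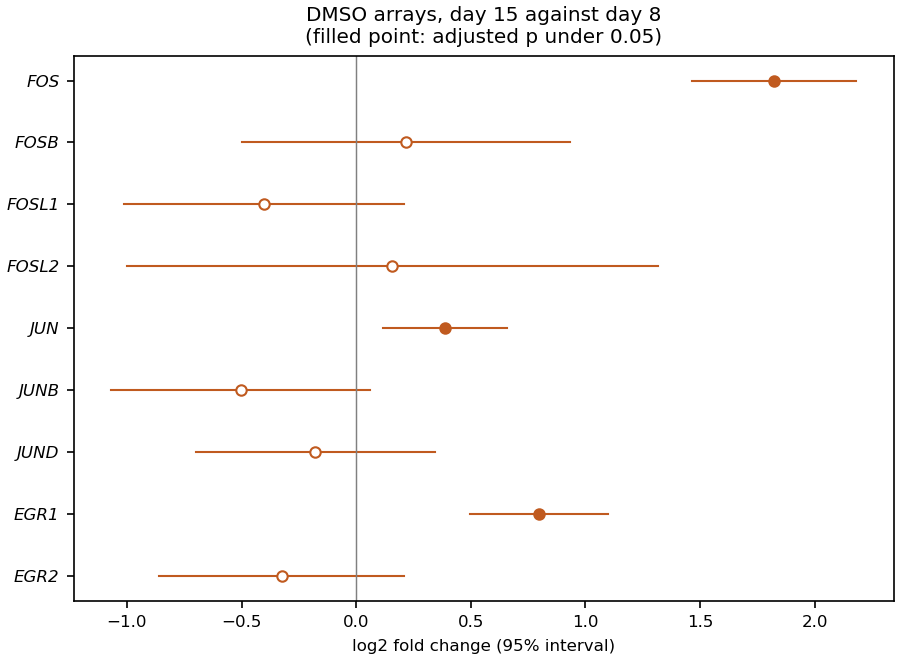
Log2 fold change of DMSO arrays on day 15 against day 8 (x axis, with 95% intervals) for the 9 members tested (y axis), with a filled point where the adjusted p was under 0.05. *FOS* stands apart at 1.82, followed by *EGR1* at 0.80 and *JUN* at 0.39.

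The cells of the DMSO aggregates changed in the same week. *TH*, the rate-limiting enzyme of dopamine synthesis, was lower by -2.94 on day 15 (adjusted p = 2.1e-08 in limma) and *SLC6A3*, the dopamine transporter, by -2.06 (1.33e-05), while the dopaminergic list as a whole had 2 members called higher and 2 lower of 8. Its summed signal was 1508.5 to 1573.5 on day 8 and 622.7 to 644.1 on day 15. The cell cycle markers *MKI67*, *TOP2A*, *CCNB1* and *CDK1* were called lower, 4 of the 6 precursor markers, while the summed signal of this list was 1648 to 1993.2 on day 8 and 1889.1 to 2393.8 on day 15, overlapping. Of the 8 neuronal markers 2 were called higher and 1 lower. *OLIG1* was lower by -5.17 (adjusted p = 2.24e-13 in limma), and no astrocyte, microglia, endothelial or fibroblast marker was called. The part of these changes in the rise of *FOS* and *EGR1* was not tested.

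The length of exposure and the dose were compared among the exposed groups of day 8. Between 24 and 12 h of 50 nM no member was called, while 0.268% of all genes were called higher and 0.264% lower. *EGR1* differed by 0.17 (95% interval -0.13 to 0.47) and 1 member, *EGR2*, reached an unadjusted p under 0.05 (adjusted p = 0.454 in limma), as did 10.9% of all genes. Between 100 and 50 nM at 24 h no gene was called, 0% of all tested, and 4.17% reached an unadjusted p under 0.05. Among the members 2 did so, *EGR2* and *FOS*, both with spots near background. *EGR1* differed by 0.11 between the doses (95% interval -0.19 to 0.41), *JUN* by -0.14 (95% interval -0.41 to 0.13) and *JUND* by 0.41 (95% interval -0.12 to 0.93).

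The genes around the members were read from 6 lists, each beside the share of all genes called in either direction. That share was 9.52% with 100 nM on day 8 and 23.3% between the days in DMSO. With 50 nM on day 8 it was 8.01% after 24 h and 5.52% after 12 h. These shares are descriptions and were not tested against each other. Of 15 other immediate early transcription factors, 2 were called lower with 100 nM on day 8 and none higher, with a median log2 fold change of -0.11 against -0.02 over all genes. These were *KLF10*, a TGF-beta-inducible zinc-finger factor (-0.73, adjusted p = 0.00528 in limma), and *IER5* (-0.73, adjusted p = 3.62e-05). With 50 nM, 1 was called lower after 24 h and 2 after 12 h. The share called was 13.3% with 100 nM and 26.7% between the days, when 3 were called higher and 1 lower. *NR4A2*, the nuclear receptor that drives dopaminergic differentiation and a relative of *NR4A1*, rose by 1.57 (adjusted p = 2.17e-07 in limma), *NR4A3* by 0.52 (adjusted p = 0.0160) and *KLF6* by 0.37 (adjusted p = 0.0205), while *IER5* fell by 0.56 on the log2 scale.

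Of 28 other immediate early and activity-regulated genes, 7 were called higher and 2 lower with 100 nM on day 8, with a median of 0.23. The secreted neuronal proteins *NPTX2* (0.75, adjusted p = 0.00494 in limma) and *SCG2* (0.71, adjusted p = 0.00348) and the ERK phosphatase *DUSP6* (0.70, adjusted p = 0.000689) rose most. *SGK1*, a serum- and glucocorticoid-induced kinase (-0.97, adjusted p = 7.59e-05 in limma), and *IER3* (-0.54, adjusted p = 0.00115) fell. With 50 nM the counts were 6 higher and 3 lower after 24 h and 6 higher and 1 lower after 12 h. In DMSO from day 8 to day 15, 10 rose and 7 fell, so that 60.7% of the list was called, against 32.1% with 100 nM. *SCG2* (1.77), *NPTX2* (1.15) and *VGF* (0.89) rose, as *FOS* and *EGR1* did, while *PHLDA1* (-2.10), *SIK1* (-1.87), a cAMP-induced kinase, and *BTG2* (-1.33) fell.

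Among 15 bZIP partners of AP-1 and corepressors of EGR proteins, 1 was called with 100 nM on day 8. It was *NAB2*, which binds EGR1 and represses its activity, and it rose by 0.31 (adjusted p = 0.0455 in limma) where *EGR1* was lower. With 50 nM, 1 was called higher after 24 h and 1 lower after 12 h. The share called was 6.67% with 100 nM and 33.3% between the days. In DMSO from day 8 to day 15, 4 rose and 1 fell: *JDP2*, a JUN dimerization partner (1.30, adjusted p = 3.73e-06 in limma), *BATF3* (1.17) and *NAB2* (0.61) were higher, and *NAB1* was lower (-0.42).

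Of the 36 upstream kinases and factors 35 were tested. With 100 nM on day 8, *MAPK14*, the p38 alpha kinase, was called higher (0.52, adjusted p = 0.0289 in limma), and *CREB1*, which binds the CRE (-0.81, adjusted p = 0.00114), and its coactivator *CREBBP* (-0.38, adjusted p = 0.0255) were called lower. With 50 nM none was called at either time, against 8.01% of all genes after 24 h and 5.52% after 12 h. The shares called, 8.57% with 100 nM and 22.9% between the days, were close to those of all genes. In DMSO from day 8 to day 15, 4 rose and 4 fell, among them *RPS6KA3*, a kinase that acts on CREB (2.82-fold higher), and *CRTC2*, a CREB coactivator (log2 fold change -0.91). *CREB1* differed by 0.05 (adjusted p = 0.872 in limma).

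Of 24 AP-1 target genes 21 were tested, of which 4 were called higher and none lower with 100 nM on day 8, with a median of 0.14. They were *IL11* (1.35, adjusted p = 2.15e-05 in limma), *HMOX1*, heme oxygenase (0.82, adjusted p = 0.0388), *ODC1*, the first enzyme of polyamine synthesis (0.76, adjusted p = 9.49e-05), and *TIMP1* (0.68, adjusted p = 0.00346), the last of which was named after its values were seen. With 50 nM, 4 were called higher after 24 h and 2 after 12 h. In DMSO from day 8 to day 15, 3 rose and 4 fell, and the shares called were 19% with 100 nM and 33.3% between the days. Of 12 genes linked to c-Jun in neuronal injury and death, 2 were called higher and 1 lower with 100 nM on day 8. *HRK*, a BH3-only cell death gene (1.29, adjusted p = 0.000156 in limma), and *GAL*, the neuropeptide galanin (1.04, adjusted p = 0.000231), rose, and *SOX11* fell (-0.48, adjusted p = 0.000365), while *JUN* itself differed by -0.04. With 50 nM, 2 were called higher and 1 lower after 24 h and 1 higher after 12 h. In DMSO from day 8 to day 15, 2 rose and 3 fell, *GAL* by -2.82, and the shares called were 25% with 100 nM and 41.7% between the days. After wash-out on day 15 no gene of the 6 lists was called in any of the 3 exposed groups, where 0% of all genes were called.

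The patterns of the members over the 24 arrays were compared with those of the other genes and with each other. Such correlations include the step between the days and the level of each array, and are given without a test. Among the genes most like *FOS* were *ZNF582-DT* (Pearson r = 0.977) and *CBLN2* (0.974), both higher on day 15 than on day 8 in DMSO. *EGR1* was most like *LOC101928796* (0.970), *ST6GALNAC3* (0.965) and *CSRP2* (0.965), which were also higher on day 15. *JUN* was most like *PURA* (0.829), *RBMS1* (0.827) and *FHOD3* (0.819), and *JUNB* like *NCKIPSD* (0.817), *GTF3C1* (0.816) and *SHKBP1* (0.795). *JUND* was most like *LOC407835* (0.947), *MAZ* (0.947) and *KLF16* (0.946), and these kept r = 0.911, 0.900 and 0.961 over deviations from group means, so that they followed *JUND* from array to array within the groups too. *FOS* and *EGR1* had r = 0.917 with each other over the 24 arrays and 0.02 over deviations from group means, so that the likeness lay between groups and not among replicates. *JUNB* and *JUND* had 0.18 over the arrays and 0.68 over the deviations. Deviations from group means still hold differences between slides 2 and 3, which were not corrected against each other. *JUND* read lower on slide 3 than on slide 2 in every group, for example 9.10 against 9.54 in DMSO on day 8. The part of the slides in these correlations was not tested.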

How the data were processed

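RNA of LUHMES aggregates was hybridized to 24 single-colour Agilent arrays, and samples were grouped by their labels. The authors deposited spot intensity values as written by Feature Extraction, version 11.5.1.1 for slides 1 and 3 and 12.0.0.7 for slide 2 per the file headers, and a table of log2 values that they had normalized (21733 probes, 9 of the members). Following the study's methods, the median intensity was corrected with normexp (offset 0) and quantile normalized, and parametric ComBat, which kept the groups as covariates, then adjusted slide 1 to the other slides. The methods do not name the arrays of the batch, and slide 1 was taken as such. A spot was kept where, on 3 or more arrays, it exceeded 1.1 times the 95th percentile of that array's negative controls, and flagged values were left out. Log2 values were averaged per probe and then per gene. Saturated spots were kept. Gene names came from a match of accessions to RefSeq (GRCh38.p14), found for 30275 of 50599 probes. Probe positions are left out because the design was made on another build.

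All 8 group means were fitted at once with limma 3.58.1 in R 4.3.3 (lmFit and eBayes, 16 residual and 2.44 prior degrees of freedom), with Benjamini-Hochberg adjustment over 21235 genes and two-sided p values. The residual degrees of freedom take no account of the ComBat step. Intervals are 95% and cover 1 comparison each. The number of arrays, 3 a group, limits the precision. The scripts were tested on simulated data. Before ComBat, deviations from group means correlated at over 0.1 in all 84 pairs of arrays of 1 slide (lowest 0.17, median 0.46). After ComBat 28 of these pairs did so (lowest -0.43, median 0.02). Replicate numbers thus pair the arrays by slide, and whether they pair cultures is not known. Values with the slide as a block are given where they change a call.

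Alternatives were the signal, the scaling, the offset, the batch correction, the filter, the flags, the arrays in the fit, single probes, the authors' values and each array left out. Of the 9 members in the authors' table, the values correlated at 0.903 to 0.995 with those used here, with mean differences of -0.0249 to 0.0082, so that its scale is log2 and its direction the same. Its columns had medians of 6.42 to 6.64. Named were all members, up to 3 genes called in each direction per list with 100 nM on day 8, and the 3 genes most like each member seen on at least 12 arrays, of which 1 is not reported here. List genes named between the days, and *TIMP1* with 100 nM, were chosen after their values were seen. The members and lists were chosen with earlier results of these data known. Python 3.11.15 with matplotlib 3.10.9 drew the figures.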

Additional observations from a re-analysis of the deposited data

How the results depend on the processing

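The call of *EGR1* as lower on day 8 depended on the setting, and its direction did not in any of the 20 alternatives of each comparison. With 100 nM, the count of called members went from 1 to 0 with a normexp offset of 50, with scaling to the 75th percentile, with no batch correction, in slides 2 and 3 alone and with only the compared groups in the fit. It went from 1 to 2 with the replicate block in place of ComBat and with the replicate block after ComBat, an alternative chosen after seeing the data (*JUND* added both times), and in the authors' normalized values (*JUND* added). With 50 nM for 24 h it went from 1 to 0 with scaling to the 75th percentile, with no batch correction, in slides 2 and 3 alone and with only the compared groups, and to 2 in the authors' values (*EGR2* added). With 50 nM for 12 h it went from 1 to 0 with no batch correction, in slides 2 and 3 alone and with only the compared groups. Leaving out 1 array gave 0 to 1 called members with 100 nM and with 50 nM for 24 h. Between the days in DMSO the count went from 3 to 1 (*FOS*) without batch correction and to 2 (*JUN* lost) with scaling to the 75th percentile, ComBat without covariates, slides 2 and 3 alone or only the compared groups, and was 2 to 3 on leaving out 1 array, and the interaction went from 0 to 1 with the scanner's processed signal (*EGR1*). The replicate block changed no other call of a member, and the cause of these changes was not tested. *FOS* was called between the days under all 20 alternatives, at 0.82 to 4.07, the lowest with the offset of 50 and the highest with the processed signal. Scaling on the processed signal moved the median of all genes by 0.125 with 100 nM on day 8 and by 0.188 between the days in DMSO, and scaling to the 75th percentile moved that of the interaction by 0.141. No called value changed sign in the 1804 member values computed. The signal over background limits *FOSB*, *FOSL1*, *FOSL2*, *EGR2* and *NR4A1* throughout and *FOS* on day 8.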
